A study of Mus musculus with 24 samples.

Results

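Mir101a, the gene on mouse chromosome 4 from which the hairpin precursor of miR-101a is cut, was followed through the prefrontal cortex of 24 mice. It was taken as the probe set annotated with the single symbol Mir101a, which gave 1 gene of 18820 measured and 1 of 303 measured microRNA precursors. It was chosen by its difference between the genotypes in these same arrays, so that difference is given below as a description, with no test, and supports nothing. Its variation from mouse to mouse within a genotype, the other miR-101 loci, its neighbours and the genes that miR-101 is reported to repress were not used in the choice and were tested.

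The mutants (MUT, n = 12) carried the Df16(A)+/- deletion, which removes 1 copy of a chromosome 16 segment that corresponds to the human 22q11.2 microdeletion. The controls (WT, n = 12) were their wild-type littermates. All were males aged 8 weeks on the C57BL6/J background, the tissue was dissected prefrontal cortex, and each RNA sample was hybridised to 1 Affymetrix array. The values are on the log2 scale, made by RMA, and a difference of 1 is a doubling of the signal.

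A microRNA gene is transcribed as a long primary transcript, from which Drosha and its partner Dgcr8 cut a hairpin. Dicer then cuts the hairpin, and 1 strand of the product guides Argonaute proteins to messenger RNAs, mainly by pairing through the seed near its 5′ end. The miR-101 family is conserved among vertebrates and is abundant in brain. It is known, mostly from human cells, for repressing EZH2, the histone methyltransferase of Polycomb repressive complex 2, and it has been reported to repress the amyloid precursor protein. The array row reports RNA that holds the probed sequence, so it does not separate the primary transcript from the hairpin and does not measure mature miR-101a. In bulk tissue, fewer cells of a type and less RNA per cell cannot be told apart.

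The sequences below, from RefSeq on build GRCm38.p6, show what the probed precursor contains and how its product differs from those of its relatives. In the hairpin, at chr4:101346945-101347027 on the minus strand, the capitals mark the 5p and then the 3p mature arm.
Mir101a hairpin: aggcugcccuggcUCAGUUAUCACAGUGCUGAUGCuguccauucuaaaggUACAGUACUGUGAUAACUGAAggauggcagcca
In the mature sequences, written 5′ to 3′, the capitals mark the seed, bases 2 to 8. The arms of miR-101a lie at chr4:101346957-101346977 (3p) and chr4:101346993-101347014 (5p), both on the minus strand.
mmu-miR-101a-3p: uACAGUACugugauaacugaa
mmu-miR-101a-5p: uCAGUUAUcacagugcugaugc
The relatives are miR-101b-3p (chr19:29135338-29135356, plus strand), miR-101c (chr9:3038680-3038698, minus strand) and miR-144-3p (chr11:78073047-78073066, plus strand), a microRNA known from red blood cells.
mmu-miR-101b-3p: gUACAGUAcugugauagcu
mmu-miR-101c: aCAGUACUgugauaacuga
mmu-miR-144-3p: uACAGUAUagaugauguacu

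miR-101b-3p carries 1 more base at its 5′ end than miR-101a-3p, and with that shift 17 of 18 aligned bases were identical (94.4%). miR-101c starts 1 base later, and all 19 of its bases matched. Because the starts differ, miR-101a-3p was the only 1 of 1738 mature mouse entries with the letters ACAGUAC at bases 2 to 8. The same 7 letters stood from base 3 in miR-101b-3p, from base 1 in miR-101c and from base 12 in miR-503-5p, and nowhere else in the table. miR-144-3p shared bases 2 to 7 with miR-101a-3p but only 8 of 20 bases in all (40%). The hairpins diverged more: that of Mir101b, at chr19:29135279-29135375 on the plus strand, was identical to that of Mir101a at 69 of 99 aligned positions (69.7%).
Mir101b hairpin: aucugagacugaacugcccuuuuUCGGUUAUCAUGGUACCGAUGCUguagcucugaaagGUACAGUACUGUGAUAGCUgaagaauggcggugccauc

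The Mir101a row was higher in every mutant than in any wild type. In replicates 1 to 12 in order, the MUT values were 7.52, 7.50, 7.34, 7.27, 7.34, 7.21, 7.42, 7.62, 7.23, 6.97, 7.44 and 7.54. The WT values in replicates 1 to 12 were 6.75, 6.74, 6.39, 6.67, 6.81, 6.58, 6.44, 6.20, 6.57, 6.37, 6.30 and 6.47. The groups did not overlap: the lowest mutant, replicate 10 at 6.97, stood 0.16 above the highest wild type, replicate 5 at 6.81. The means were 7.37 ± 0.18 in MUT and 6.52 ± 0.20 in WT (SD, n = 12 each), a difference of 0.84 ± 0.07 (moderated SE), or 1.79-fold. The spread within each genotype was alike, with a range of 0.65 in MUT and 0.62 in WT.

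**Figure D1:**
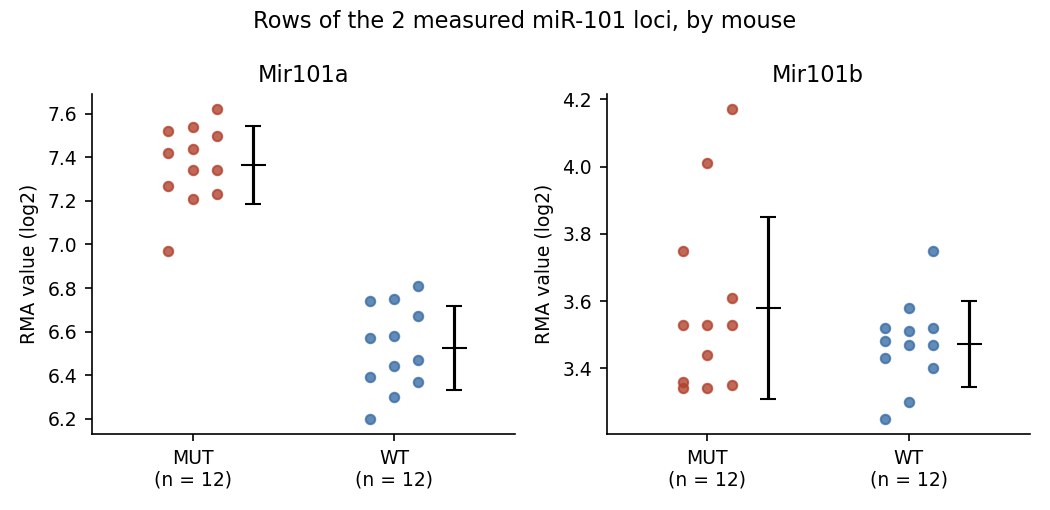
RMA values on the log2 scale of the Mir101a row (left) and the Mir101b row (right) in each mouse, with MUT in red and WT in blue; the bars beside the points are the mean and SD of 12 mice, and the vertical axes of the panels differ. For Mir101a the lowest mutant (6.97) lies above the highest wild type (6.81), while for Mir101b the genotypes overlap.

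Among the 303 precursors the difference of Mir101a was the second largest. It followed that of Mir137, a neuronal microRNA gene, at 1.15, and stood ahead of Mir138-2 at 0.77 and Mir412 at 0.75. Groups without overlap, with every mutant higher, were found in 17 precursors, Mir101a included, and in 21 of all genes (0.112% of 18820). The other precursors were a shifted background: 58 of 302 rose, none fell and 244 did not pass the threshold, an adjusted p under 0.05 in limma over all genes, where 0.531% of genes were called higher and 0.228% lower. Their median difference was 0.11, against -0.001 over all other genes.

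**Figure D2:**
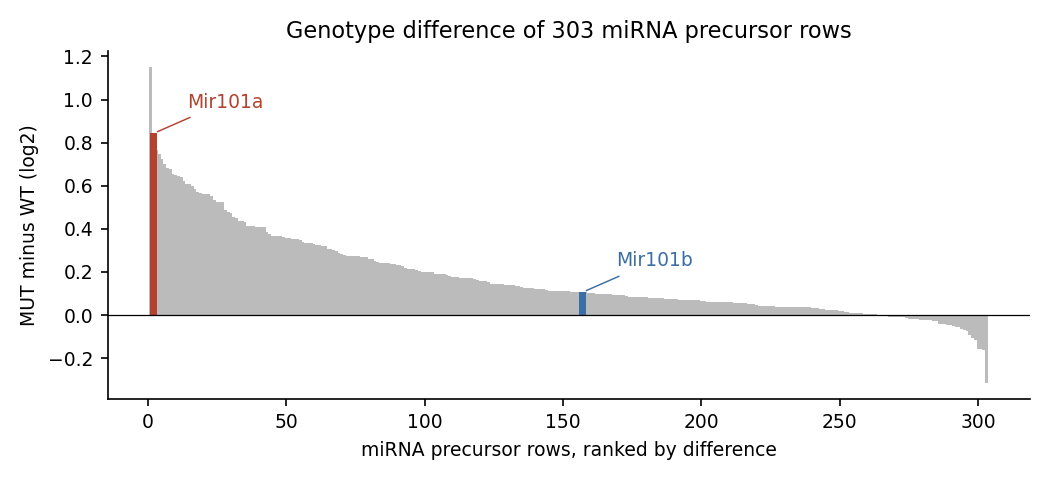
Difference between MUT and WT on the log2 scale for each of 303 precursors, ranked from the highest to the lowest, with the bars of Mir101a and Mir101b coloured and drawn wider. Mir101a (0.84) ranks 2 and Mir101b (0.11) ranks 157.

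The arrays carry a running number from 1 to 24 in the labels, over which the genotypes alternate irregularly; what it stands for is not stated. In arrays 1 to 12 Mir101a averaged 7.37 ± 0.11 in MUT (SD, n = 7) and 6.67 ± 0.17 in WT (SD, n = 5), a difference of 0.70. In arrays 13 to 24 it averaged 7.36 ± 0.26 in MUT (SD, n = 5) and 6.42 ± 0.14 in WT (SD, n = 7), a difference of 0.94. As the whole groups did not overlap, neither set could show an overlap. The change in the difference between the sets was 0.25 (limma, unadjusted p = 0.0812, adjusted p = 0.813).

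Among wild types the level was lower in later arrays, with r = -0.62 between Mir101a and the array number (permutation test, two-sided, p = 0.0334, n = 12; Spearman's rho = -0.63, p = 0.0325; r = -0.70 without WT replicates 8 and 5). Among mutants r was -0.13 (permutation p = 0.684; rho = -0.04, p = 0.905). In all, 72 correlations of Mir101a with other measures were computed, and the lowest adjusted p among them was 0.48, so that none passed the correction. The difference between the genotypes in this trend was not tested.

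**Figure D3:**
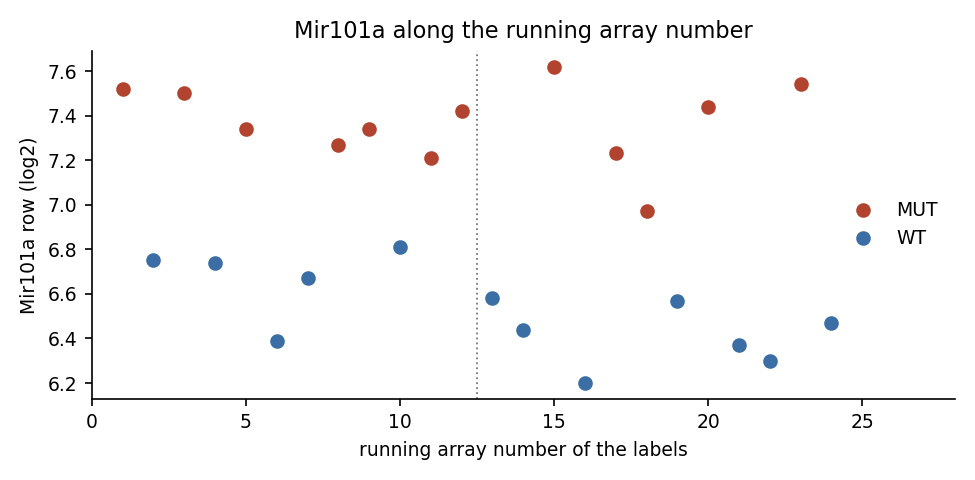
The Mir101a row on the log2 scale (vertical axis) against the running array number of the labels, with MUT in red and WT in blue; the dotted line separates arrays 1 to 12 from arrays 13 to 24. The 5 wild types left of the line average 6.67 and the 7 right of it 6.42, and every mutant lies above every wild type.

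Mir101b, the other miR-101 locus with a row, did not pass the test of the genotype difference. Its MUT values ran from 3.34 to 4.17 with a median of 3.53, and its WT values from 3.25 to 3.75 with a median of 3.48. Only 3 mutants, replicates 7, 10 and 12, lay above the highest wild type, and the groups overlapped otherwise. The means were 3.58 ± 0.27 in MUT and 3.47 ± 0.13 in WT (SD, n = 12 each), a difference of 0.11 ± 0.08 (limma, adjusted p = 0.646). RMA compresses differences in dim rows, and the table gives no detection call, so the absence of a call in Mir101b does not show that its transcript was alike in the genotypes. Mir101c, the third locus, was not analysed here. Mir144 had a difference of 0.11 (limma, adjusted p = 0.408).

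Within genotypes no relation between the levels of both loci was detected with this number of mice. Over deviations from the genotype means, r between Mir101a and Mir101b was 0.06 (permutation p = 0.775, n = 24; rho = 0.16, p = 0.453; r = 0.26 without MUT replicate 10 and WT replicate 8). It was -0.16 in MUT and 0.51 in WT, and both changed sign without the 2 mice farthest out, to 0.35 in MUT without replicates 10 and 8 and to -0.10 in WT without replicates 8 and 5. In the RefSeq annotation Mir101b lies inside Rcl1, on the same strand; Rcl1, a gene of ribosomal RNA processing, averaged 8.14 ± 0.08 in MUT and 8.14 ± 0.13 in WT (SD, n = 12 each; limma, adjusted p = 0.998).

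In the same annotation Mir101a lies inside E130102H24Rik, a long noncoding RNA gene on the same strand, which was not analysed here. Of the measured genes on either side of it none was called. None of the 10 nearest, 5 on each side, passed the test, against 0.76% of all genes called in either direction. Their median difference was 0.004, 5 lay above 0 and 5 below, and the range ran from -0.04 to 0.13. The upper end was Ube2u, a ubiquitin-conjugating enzyme gene, at 0.13 ± 0.07 (limma, adjusted p = 0.477). Jak1, a kinase of cytokine receptors, averaged 11.19 ± 0.06 in MUT and 11.23 ± 0.08 in WT (SD, n = 12 each), a difference of -0.04 (limma, adjusted p = 0.624).

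The other neighbours had differences within 0.08 of 0. Raver2, an RNA-binding protein gene, differed by 0.04, Cachd1 by 0.03, and Ror1, a receptor tyrosine kinase-like gene, by -0.01. On the other side Ak4, a mitochondrial adenylate kinase, differed by -0.02, Dnajc6, which encodes the clathrin-uncoating protein auxilin, by -0.002, and Leprot by 0.01. Lepr, the leptin receptor, differed by 0.08 and Pramel17 by -0.04. Within genotypes their correlations with Mir101a had a median of -0.21 and ran from -0.40 for Raver2 to 0.29 for Leprot. None of the 10 neighbours had a slope on Mir101a with an unadjusted p under 0.05. Of the 10 genes around Mir101b none passed either, with a median difference of -0.013 and the largest, -0.13, in Plgrkt (limma, adjusted p = 0.241).

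Of 22 genes listed as reported miR-101 targets, mostly from human cells, none rose, none fell and 22 did not pass the test. Over all genes 0.531% were called higher and 0.228% lower, so a list of 22 genes need hold no call. The differences of the 22 targets ran from -0.08 to 0.07 with a median of -0.015, against -0.001 over all genes. Of these differences 13 lay below 0 and 9 above. Ezh2 averaged 8.56 ± 0.06 in MUT and 8.64 ± 0.09 in WT (SD, n = 12 each), a difference of -0.08 ± 0.03 (limma, unadjusted p = 0.0169, adjusted p = 0.304). Its WT values reached higher, but the groups overlapped, with 2 mutants below all wild types. Fmr1, whose protein binds messenger RNAs at synapses, had -0.07 ± 0.03 (adjusted p = 0.41), the small GTPase gene Rap1b -0.06 ± 0.03 (adjusted p = 0.411) and Eed -0.07 ± 0.04 (adjusted p = 0.506), all in limma.

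App, the amyloid precursor, averaged 12.87 ± 0.02 in MUT and 12.87 ± 0.03 in WT (SD, n = 12 each; limma, adjusted p = 0.995). Ptgs2, which encodes the prostaglandin-forming enzyme COX-2, had -0.08 ± 0.07, Mcl1, a gene against cell death, -0.03 ± 0.03, and Atxn1, the gene of the spinocerebellar ataxia protein, 0.02 ± 0.02. The upper end was Mycn, a transcription factor gene, at 0.07 ± 0.05 (limma, adjusted p = 0.602). The array measures transcripts, so repression of translation was not measured.

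Within genotypes no covariation of the targets with Mir101a was detected. Their correlations had a median of -0.02, against 0.02 over all other genes, with 10 of 22 above 0 and a range from -0.37 for Atxn1 to 0.39 for Dnmt3a, a DNA methyltransferase. None had a slope on Mir101a with an unadjusted p under 0.05, where 5.62% of all other genes had one. Ezh2 had r = -0.02 (permutation p = 0.943, n = 24; rho = -0.04, p = 0.866; r = -0.23 without the 2 mice farthest out).

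Polycomb repressive complex 2, of which Ezh2 and Eed are part, was examined as a list of 11 genes, 10 of them measured. None passed the test, where 0.76% of all genes were called in either direction. Of the 10, 8 had differences below 0, as had 9600 of the 18819 genes other than Mir101a. The median was -0.045, against -0.001 over all genes, and this lean was not tested. At an unadjusted p under 0.05 in limma, 1 of the 10 had a positive slope on Mir101a and none a negative one. Named next are the members with the smallest p for genotype after Ezh2. Suz12, a core subunit, had -0.08 ± 0.03 (limma, adjusted p = 0.327), Rbbp7, a histone-binding subunit, -0.08 ± 0.04 (adjusted p = 0.442), and the accessory subunit Aebp2 -0.05 ± 0.03 (adjusted p = 0.474).

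The genes that process microRNAs were followed because Dgcr8 lies in the deletion. Dgcr8 averaged 8.26 ± 0.08 in MUT and 8.79 ± 0.05 in WT (SD, n = 12 each), and fell by 0.54 on the log2 scale (limma, adjusted p = 5.2e-13). It was the only 1 of 15 listed processing genes that passed, and the median of the list was -0.004. Drosha had -0.01 (adjusted p = 0.876) and Dicer1 -0.02 (adjusted p = 0.798), both in limma. From mouse to mouse within a genotype, no relation of Mir101a with Dgcr8 was detected, with r = -0.00 (permutation p = 0.983, n = 24; rho = 0.04, p = 0.865; r = 0.22 without MUT replicate 10 and WT replicate 8). The precursors listed as independent of Dgcr8 that were measured, Mir320 and Mir484, differed by -0.02 and 0.06 (limma, adjusted p = 0.939 and 0.561), and their mean had r = 0.14 with Mir101a (permutation p = 0.511, n = 24; rho = 0.11, p = 0.626).

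Covariation with Mir101a was then asked of every gene, in a fit with genotype and the level of Mir101a as terms, so that the slope used only deviations from the genotype means. No gene of 18819 passed an adjusted p under 0.05 in limma, and the smallest adjusted p was 0.557. At an unadjusted p under 0.05, 1058 genes (5.62%) had a slope, 646 of them positive (3.43%) and 412 negative (2.19%). Of the 302 other precursors, 38 had a positive slope at that level (12.6%) and 2 a negative one. Without MUT replicate 10, the lowest mutant, 23 precursors and 503 of all other genes had a positive slope.

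The precursors leaned to the positive side as a group. Their correlations with Mir101a had a median of 0.13 and ran from -0.46 to 0.65, and 224 of 302 (74.2%) lay above 0. Over the 18517 genes that are no precursor the median was 0.02 and 53.4% lay above 0. The lean was larger among the 151 brighter precursors, with a median of 0.23 and 27 positive slopes, than among the 151 dimmer ones, with a median of 0.08 and 11 positive slopes; the difference was not tested. Among the 58 precursors that rose in mutants the median was 0.25, and among the 244 that did not pass it was 0.11. Of those 58, 51 were among the brighter precursors and 7 among the dimmer ones, so this contrast was not separated from brightness.

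**Figure D4:**
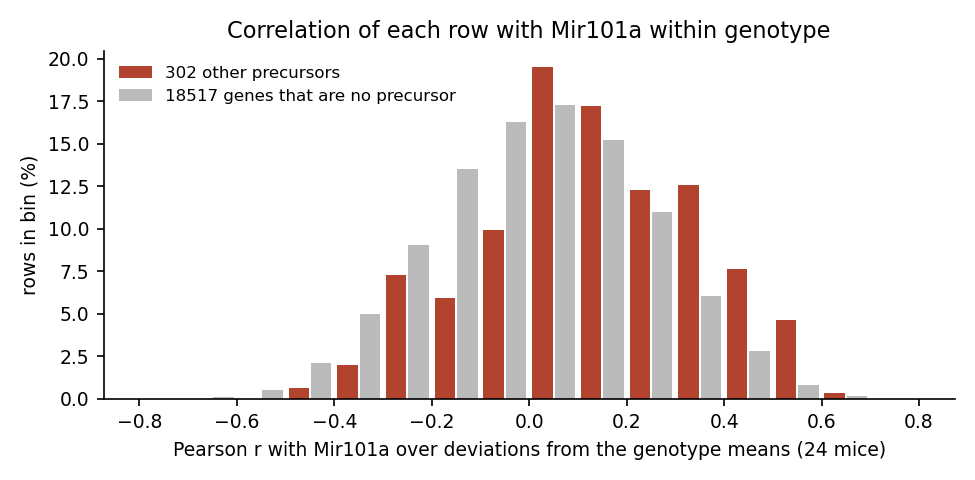
Share of genes (vertical axis, %) in each interval of Pearson r with Mir101a over deviations from the genotype means (horizontal axis, 24 mice), for 302 other precursors in red and 18517 genes that are no precursor in grey. Of the precursors 74.2% lie above 0, and of the other genes 53.4%.

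Other precursors leaned the same way, many of them further. Ranked by correlation with the mean of the rest, Mir101a stood at place 79 of 303 precursors, with r = 0.46, where the median precursor had 0.28 and the range ran from -0.46 to 0.85. Ranked by the median of its correlations with the others it stood at place 69.

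The mean of the 302 other precursors ran from 5.77 to 5.86 in MUT and from 5.53 to 5.75 in WT, so that the groups did not overlap and the wild types were the more spread out. Over deviations from the genotype means, r between Mir101a and this mean was 0.46 (permutation test, two-sided, p = 0.0322, n = 24; rho = 0.36, p = 0.0889; adjusted p = 0.48). Without MUT replicate 10 and WT replicate 8, the mice farthest from the median of Mir101a, r was 0.48. It was 0.22 within MUT (permutation p = 0.498, n = 12; rho = 0.08, p = 0.817; r = 0.17 without replicates 10 and 8) and 0.59 within WT (permutation p = 0.0475, n = 12; rho = 0.65, p = 0.0255; adjusted p = 0.488). The WT value was 0.66 without replicates 8 and 5. In arrays 1 to 12 r was 0.78 (permutation p = 0.011, n = 12), and in arrays 13 to 24 it was 0.26 (permutation p = 0.327, n = 12).

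**Figure D5:**
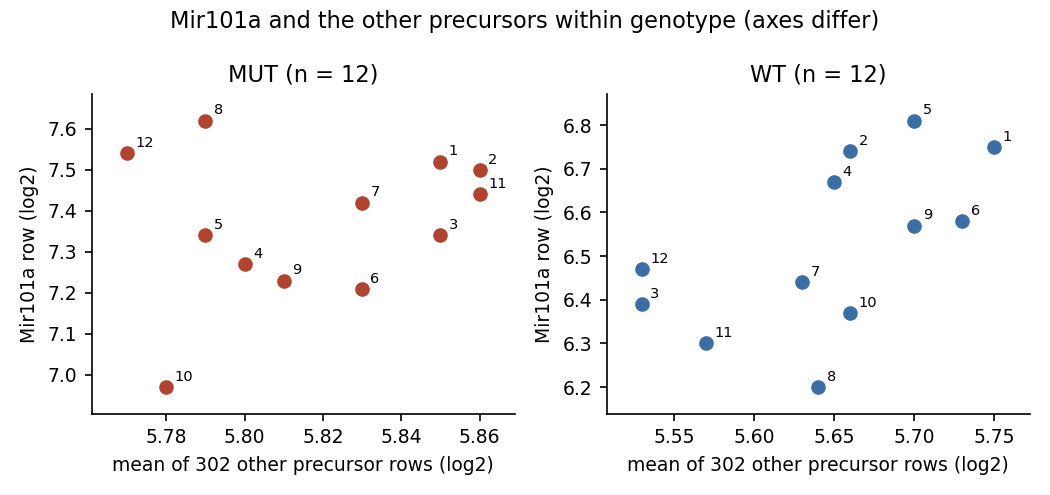
The Mir101a row (vertical axis, log2) against the mean of the 302 other precursor rows (horizontal axis, log2) in 12 MUT (left) and 12 WT (right) mice, each point with its replicate number; the axes of the panels differ. Pearson r is 0.22 in MUT and 0.59 in WT.

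The counts within each genotype followed the same pattern, and their difference as a group was not tested. Within WT 242 of 302 precursors had a correlation above 0 with Mir101a and the median was 0.26, against 0.04 over all other genes. Within MUT 159 had one and the median was 0.03, against 0.01 over all other genes. The share of all other genes above 0 within each genotype is not given here. As the precursors also correlate with one another, these counts are not of independent genes. Tested gene by gene, no slope differed between the genotypes at an adjusted p under 0.05 in limma. In the same fit 1463 genes (7.77%) and 31 of 302 precursors had an unadjusted p under 0.05. Those counts depended on the fit. Without MUT replicates 5, 9 and 10 they were 777 genes and 22 precursors, and with replicate number as a block 1007 and 19.

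The precursors of the imprinted chromosome 12 cluster, which are transcribed together, were set apart from those elsewhere. With the mean of the 36 cluster precursors, Mir101a had r = 0.16 (permutation p = 0.49, n = 24; rho = 0.06, p = 0.793; r = 0.10 without the 2 mice farthest out). With the mean of the 266 elsewhere it had r = 0.53 (permutation p = 0.00963, n = 24; rho = 0.49, p = 0.0191; r = 0.59 without those mice; adjusted p = 0.48). The mean elsewhere gave r = 0.38 in MUT (permutation p = 0.232, n = 12) and 0.64 in WT (permutation p = 0.0286, n = 12), and 0.83 in arrays 1 to 12 against 0.32 in arrays 13 to 24. At an unadjusted p under 0.05, 2 of the 36 cluster precursors had a positive slope (5.56%) and 36 of the 266 elsewhere (13.5%). The share of all other genes was 3.43%, and the 2 negative slopes lay elsewhere. Taken gene by gene, both sets leaned to the positive side. The median r was 0.15 in the cluster, with 30 of 36 above 0 (83.3%). Elsewhere the median r was 0.13, with 194 of 266 above 0 (72.9%). The difference between both sets was not tested.

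The precursor most like Mir101a within genotypes was Mir707, on chromosome 7, with r = 0.65 (0.70 in MUT and 0.64 in WT). Its values ran from 6.0 to 6.99 with a median of 6.46 in MUT, and from 6.19 to 6.76 with a median of 6.48 in WT. Its highest mutant was replicate 8 and its lowest replicate 10, which were also the highest and the lowest mutants for Mir101a, while the genotypes overlapped (difference -0.03, limma, adjusted p = 0.928). Its slope on Mir101a was 0.71 ± 0.18 (SE; limma, adjusted p = 0.662), and was 0.10 within arrays 1 to 12 and 1.09 within arrays 13 to 24.

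Next came Mir181c, with r = 0.60, then Mir425 with 0.58, Mir29a with 0.57, Mir125a with 0.56 and Mir218-1 with 0.56. After them stood Mir15a with 0.54, Mir143 with 0.54, Mir448 with 0.52 and Mir483 with 0.52. These 10 were picked as the highest of 302 and none has a slope that passed over all genes (limma, adjusted p from 0.662 to 0.861). They lie on 9 chromosomes, none of them chromosome 4, with Mir707 and Mir483 both on chromosome 7.

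Some of the 10 also rose in mutants and others did not. Mir29a, of a family known for repressing collagen genes, averaged 5.04 ± 0.30 in MUT and 4.31 ± 0.29 in WT (SD, n = 12 each), a difference of 0.72 ± 0.11 (limma, adjusted p = 0.000379), with 10 mutants above all wild types. Mir181c averaged 7.62 ± 0.14 in MUT and 7.28 ± 0.11 in WT (SD, n = 12 each), a difference of 0.33 ± 0.05 (limma, adjusted p = 0.000188), with 9 mutants above all wild types. Mir125a rose by 0.27 ± 0.06 (limma, adjusted p = 0.0414), a call that was lost with a replicate block (adjusted p = 0.0908). Mir425 had 0.20 ± 0.05 (limma, adjusted p = 0.0925) and Mir483 -0.009 ± 0.07 (limma, adjusted p = 0.976).

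The mature products of the leading precursors are shown from RefSeq, with the seed in capitals, because none of them carries the seed of miR-101a-3p. They lie at chr7:44849705-44849725 (plus strand), chr8:84178924-84178945 (minus), chr9:108568789-108568811 (plus) and chr6:31062673-31062694 (minus).
mmu-miR-707: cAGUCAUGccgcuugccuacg
mmu-miR-181c-5p: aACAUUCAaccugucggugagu
mmu-miR-425-5p: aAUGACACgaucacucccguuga
mmu-miR-29a-3p: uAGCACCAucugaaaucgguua
At the low end stood Mir568 with r = -0.46, Mir452 with -0.44 and Mir615 with -0.39. Of other precursors with a genotype difference, Mir137 had r = 0.37, Mir138-1 0.51 and Mir138-2 0.07, and Mir9-2, of a brain microRNA family, -0.16.

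Among genes that are no precursor, Atp8b2, which encodes a phospholipid flippase, had the highest correlation, at 0.78 (0.78 in MUT and 0.80 in WT). It averaged 9.90 ± 0.09 in MUT and 9.91 ± 0.08 in WT (SD, n = 12 each), and MUT replicate 10 was its lowest mutant too, at 9.69. Its slope was 0.35 ± 0.07 (SE; limma, unadjusted p = 3.65e-05, adjusted p = 0.557). Then came Ppp1r17, a phosphatase inhibitor gene, with 0.71, Mroh5 with 0.71, a, the nonagouti gene of coat colour signalling, with 0.69, and Stx3, a gene of membrane fusion, with 0.67.

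The nonagouti gene, picked as an extreme of r and with a slope that did not pass, also differed between the genotypes. Its row averaged 6.13 ± 0.19 in MUT and 5.38 ± 0.17 in WT (SD, n = 12 each), a difference of 0.75 ± 0.07 (limma, adjusted p = 5.75e-08). The genotypes did not overlap, as for Mir101a, and its lowest mutant, at 5.76, was replicate 10. Its correlation with Mir101a was 0.64 in MUT and 0.75 in WT, with a slope of 0.67 ± 0.15 (SE; limma, adjusted p = 0.557).

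At the other end stood Lrrc58 with r = -0.70, Cmtm3 with -0.69, Gpr182, an atypical receptor gene, with -0.68, the olfactory receptor gene Olfr1325 with -0.68 and Rab32, a small GTPase of organelle traffic, with -0.67. None of the 5 passed over all genes (limma, adjusted p from 0.557 to 0.662), and their genotype differences lay between -0.08 and 0.02.

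Markers of the cells in the tissue were set beside Mir101a as mean levels per list; with no detection call, none could be called absent. The 8 neuron markers averaged from 12.42 to 12.53 in MUT and from 12.46 to 12.52 in WT, and no marker of the 10 cell type and region lists passed the genotype test. The mean of the neuron markers had r = -0.37 with Mir101a (permutation p = 0.0756, n = 24; rho = -0.27, p = 0.213; r = -0.25 without the 2 mice farthest out). Within MUT it had r = -0.58 (permutation p = 0.0449, adjusted p = 0.488, n = 12) with rho = -0.47 (p = 0.128). Within WT it had r = -0.09 (permutation p = 0.784, n = 12), and the difference between the genotypes was not tested. The 8 astrocyte markers averaged from 10.69 to 10.90 in MUT and from 10.73 to 10.88 in WT. Their mean had r = -0.44 (permutation p = 0.0318, n = 24; rho = -0.29, p = 0.174; adjusted p = 0.48), and r was -0.26 without MUT replicate 10 and WT replicate 8 (permutation p = 0.22), so that the relation did not hold without those 2 mice. Leaving out any 1 mouse gave r from -0.50 to -0.34. In arrays 1 to 12 the astrocyte value was -0.37, and in arrays 13 to 24 it was -0.59.

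The 5 measured blood markers were Alas2, Ngp, S100a8, S100a9 and Camp, with no haemoglobin gene among them. They averaged from 5.62 to 6.48 in MUT and from 5.93 to 8.62 in WT. Their mean had r = -0.17 with Mir101a (permutation p = 0.483, n = 24, with rho = 0.12, p = 0.591). It had r = 0.45 in MUT (permutation p = 0.143, n = 12) and -0.39 in WT (permutation p = 0.214, n = 12), a difference that was not tested. The mean of the 12 immediate early genes had r = 0.14 with Mir101a (permutation p = 0.507, n = 24; rho = 0.29, p = 0.182). The 20 listed genes of the deleted interval, which check the genotype labels, averaged from 8.26 to 8.35 in MUT and from 8.88 to 8.97 in WT; 19 fell, and their mean had r = 0.16 with Mir101a (permutation p = 0.47, n = 24; rho = 0.10, p = 0.661). The part of cell composition in any of these relations was not tested.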

How the data were processed

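Total RNA of 24 prefrontal cortices was labelled as whole-transcript cDNA and hybridised to Affymetrix arrays, per the labels' protocols. The authors deposited 1 log2 value per probe set and mouse, made by RMA per the submitters' processing notes; the sources used here give neither its version nor the build of the probe sets. Values lay between 1.82 and 14.49, array medians between 6.71 and 6.82, and correlations between arrays from 0.9939 to 0.9974. The number of arrays limits the precision. The labels call the arrays replicates without naming an animal for each. Each was counted as 1 mouse, and the p-values judge a result against the spread between these samples.

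Of 35556 probe sets, 21218 had 1 gene symbol in the platform annotation, 1881 several and 12457 none listed. A gene was its brightest probe set with 1 symbol (1386 genes had several), which gave 18820 genes, 18790 of them matched to the RefSeq table of GRCm38.p6, used for names, chromosomes and order. The value table was used whole, with no filter on dim genes.

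Genes were fitted with limma 3.58.1 (lmFit, eBayes) in R 4.3.3: genotype alone, then genotype with the level of Mir101a centred within genotype, then their interaction. P-values were adjusted over all genes (Benjamini-Hochberg, threshold 0.05). Correlations used 100000 permutations, two-sided, within genotype for deviations (scipy 1.17.1), with 72 relations adjusted together. On simulated data of 18820 genes, the genotype fit recovered 55.2% of differences of 0.2, 94% of 0.4 and 100% of 0.8, with 10 false calls. The slope fit on 18819 genes recovered 1.49% of slopes made with r = 0.4, 26.9% with 0.6 and 87.9% with 0.8, with 4 false calls. At r = 0.4 most simulated slopes were missed. The simulated noise was drawn independently for each gene, so these rates need not hold in arrays where genes vary together.

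Mir101a, the lists and the alternatives were chosen with earlier results of these data known. Genes were named by a rule: the miR-101 loci and their measured neighbours, the 10 precursors and 5 other genes with the highest r and the 3 and 5 with the lowest, a few fixed genes, and up to 4 members of a list with the smallest p for genotype. Ptgs2, Mcl1, App, Atxn1, Dnmt3a and Mycn of the target list, Mir412, Mir144 and Mir138-1, Mir138-2, Mir137 and Mir9-2 were named beside that rule with their values known. Replicate numbers 1 to 12 are shared by the genotypes, and although the wild types are littermates of the mutants, the labels do not tie a number to a litter. Deviations of same-numbered mice correlated at a median of 0.10 (from -0.08 to 0.31) over 12 pairs, against -0.01 for other pairs. Of the 12 mutants, 2 correlated best with the wild type of their own number. Because the labels name no pairs, the numbers were not treated as pairs. These values do not exclude a weak shared part, and a replicate block was an alternative. The other alternatives were quantile normalization, median centring, the array set (1 to 12 or 13 to 24), array number, the first residual component, a filter on dim genes, the mean of probe sets, eBayes with trend and robust, leaving out MUT replicates 5, 9 and 10, and leaving out each mouse.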

Additional observations from a re-analysis of the deposited data

How the results depend on the processing

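The difference of Mir101a between MUT and WT lay between 0.70 and 0.94 under 12 alternatives, and between 0.81 and 0.88 when each of the 24 mice was left out in turn. Some alternatives could not change it, and it stayed at 0.84. These were the replicate block, the first residual component, the filter on dim genes, the mean of probe sets, and trend and robust moderation. They kept the Mir101a values, and any term they added was balanced over the genotypes. The 23 named slopes on Mir101a, picked as extremes in the same mice, passed under none of the alternatives, and their size moved: that of Mir707 ran from 0.10 to 1.09 and that of Mir425 from 0.21 to 0.60. The count of genes that covary with Mir101a at an adjusted p under 0.05 was 0 in both directions (0 to 0 when each mouse was left out), except that 1 gene, Krtap24-1, had a negative slope of -0.60 (limma, adjusted p = 0.021) when the first residual component was a term, a gene named after its value was seen. The 38 precursors with a positive slope at an unadjusted p under 0.05 were 25 in arrays 13 to 24, 48 in arrays 1 to 12 and 38 with the replicate block; leaving out each mouse gave 23 to 51, the lowest without MUT replicate 10. The 2 precursors with a negative slope were between 0 and 16 under the alternatives, the highest in arrays 13 to 24. The correlation with the mean of the other precursors ran from 0.26 to 0.78 (0.39 to 0.52 when each mouse was left out), was 0.56 over the 12 differences of same-numbered mice in the replicate block (permutation p = 0.0555; 0.0599 for the precursors elsewhere), and was 0.36 with the array number as a term, an alternative chosen after seeing the data, as were the correlations within arrays 1 to 12 and 13 to 24.

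The 100 genes higher in MUT were between 82 and 108 when each mouse was left out, 110 with the replicate block, 116 with trend and robust moderation and 150 when the first residual component was added. The 43 lower ones were 69 when the first residual component was added, 66 without the dimmest 25% of genes, 66 with trend and robust moderation, 37 with the replicate block, and 37 to 56 when each mouse was left out. Values near 0 changed sign: r with Dgcr8 was 0.03 with arrays centred, 0.03 with the array set as a term, 0.08 without MUT replicates 5, 9 and 10, 0.04 as Spearman's rho, 0.22 without the 2 mice farthest out and -0.10 to 0.12 when each mouse was left out. The r with Mir101b was -0.09 in arrays 13 to 24, 0.38 without MUT replicates 5, 9 and 10, 0.36 with the replicate block and -0.09 to 0.34 when each mouse was left out. The r with astrocyte markers was between -0.69, with the replicate block, and -0.26. The genotype call of Mir125a was lost with quantile normalization (adjusted p = 0.0834), with the array set as a term (0.0517) and in 15 of the 24 fits that left out 1 mouse. The cause of these changes was not tested. With the replicate block the unadjusted p of the correlations with the mean of the other precursors and of those elsewhere lay above 0.05. The block also changed genotype calls over all genes, as the counts above show, and the precursors called higher went from 59 to 55. Of the genotype calls followed gene by gene, that of Mir125a was lost with the block. Those of Mir137, Mir138-1, Mir138-2, Mir29a, Mir181c, Dgcr8 and the nonagouti gene were kept.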
